A study of Mus musculus with 5 samples.

Results

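The mitochondrially encoded genes are the 37 genes that the deposited gene tables place on the mitochondrial chromosome (MT), out of 46078 genes listed for each library. Membership was set by chromosome alone and by no measured value, although earlier results of these data were known when the set was chosen. They comprise 13 protein-coding genes, 2 rRNA genes and 22 tRNA genes, and all 37 were found in the tables of all 5 libraries. RNA came from neural stem and progenitor cells cultured from the mouse subventricular zone, the lining of the lateral ventricles of the adult forebrain where new neurons arise. The labels give the strain as C57BL/6, the genotype as no mutation, the sex as female and the age as 5 to 8 weeks, whereas the study's methods give an older age for such cultures. All cells received a PBS sham exposure. RNA was taken after 1 h (replicates 1 and 2, n = 2) or 8 h (replicates 13, 14 and 15, n = 3), so that the groups differed by label only in time after PBS. The cells were primary cultures, grown as floating spheres with EGF and FGF before they were plated on poly-D-lysine, and such cultures hold stem cells beside their more committed progeny. Cells exposed to hydrogen peroxide were not analysed here. By the study's methods, each biological replicate of such cells was a separate animal.

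Mitochondria keep a small circular genome of their own. Its protein-coding genes encode subunits of the respiratory chain, the series of membrane complexes that pass electrons to oxygen and pump protons, and of the ATP synthase (complex V) that uses the proton gradient. Every complex except complex II combines mitochondrial with nuclear subunits. Both strands of the circle are copied into long precursor RNAs, which are cut largely at the tRNAs lying between the other genes, so that genes transcribed together can still end at different RNA levels. Most mature mitochondrial mRNAs carry short poly-A tails, whereas tRNAs do not. The libraries were poly-A selected. Values of rRNAs, tRNAs and any mRNA without a regular tail are therefore those of the RNA that passed this selection, not of the amount in the cell.

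The libraries did not divide by time alone. By their identifiers, 1 h replicates 1 and 2 and 8 h replicate 14 carry numbers of one series (identifier series 1), and 8 h replicates 13 and 15 carry those of another (identifier series 2). The sources used here do not give the meaning of these series. Xist, the RNA of the inactive X chromosome, had 165 and 200 TPM (the transcripts of a gene as part of a fixed total per library) in 8 h replicates 13 and 15 and at most 0.061 TPM in the other 3. The summed TPM of 4 Y-linked genes was at most 0.025 in 8 h replicates 13 and 15 and 138 to 181 in the other 3, against the label female. Without those 3 libraries no comparison with 1 h is left. In a check of names against a separate count table, 78.2% of 6860 genes in the count column named 8 h replicate 13 lay within 0.1 log2 units of the TPM table named 8 h replicate 14, and 25.3% of its own table. The column named 8 h replicate 15 was closest to the table named 8 h replicate 13, with 76.9%. The column named 8 h replicate 14 was within this distance for at most 38.2% of genes, in the table of 1 h replicate 2, and the table named 8 h replicate 15 reached at most 41.1% with any column. The column of 1 h replicate 2 was closest to its own table, with 77.9%, and 1 h replicate 1 served as the reference of the check and was not itself checked. Replicate numbers below are those of the TPM tables, and those of the 8 h libraries, and with them the identifier series, are uncertain. By the columns matched, the tables named 8 h replicates 13 and 14 would both belong to series 2. Series 1 and series 2 below follow the names of the TPM tables. The 6 neural precursor markers examined (Sox2, Nes, Egfr, Fabp7, Vim and Slc1a3) all had a mean TPM of at least 1, with sums of 11202 to 14352 TPM. None of the 5 microglial markers did (0 of 5), and their sum was 0.46 to 1.47 TPM.

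The 37 genes lie nearly end to end on MT (GRCm38), 28 on the plus strand and 9 on the minus strand. Several neighbours overlap. The longest overlap joins mt-Atp8 and mt-Atp6, both subunits of the ATP synthase, over 43 bases. Its sequence is shown because reads that cross it carry bases of both genes. The shared bases are in capitals, in mt-Atp8 at MT:7897-7969 and in mt-Atp6 at MT:7927-7999, both plus strand, from GENCODE vM21 transcripts.
mt-Atp8: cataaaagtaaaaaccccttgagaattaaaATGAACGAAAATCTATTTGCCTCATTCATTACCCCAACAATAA
mt-Atp6: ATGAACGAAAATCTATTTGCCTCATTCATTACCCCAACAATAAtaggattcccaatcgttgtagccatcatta
The capitals open with the ATG of mt-Atp6 and close with the TAA of mt-Atp8. Of the other pairs, mt-Nd4l and mt-Nd4 overlap by 7 bases on 1 strand, and mt-Nd5 and mt-Nd6 by 14 bases on opposite strands. The sources used here do not say whether the deposited values used strand, and without it reads inside the last overlap could not be told apart.

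The protein-coding genes held nearly all of the mitochondrial signal. They made up between 97.9% and 98.4% of the mitochondrial TPM in the 5 libraries, the rRNAs 0.826% to 1.19%, and the tRNAs 0.769% to 0.892%. Genes on the minus strand, mt-Nd6 and 8 tRNA genes, together held 0.114% to 0.150%. Mitochondrial genes were also among the most abundant in the cells: among the 20 top genes by mean TPM, 9 were mitochondrial and 4 were nuclear copies of mitochondrial genes described below, and mt-Co1 ranked 1.

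**Figure D1:**
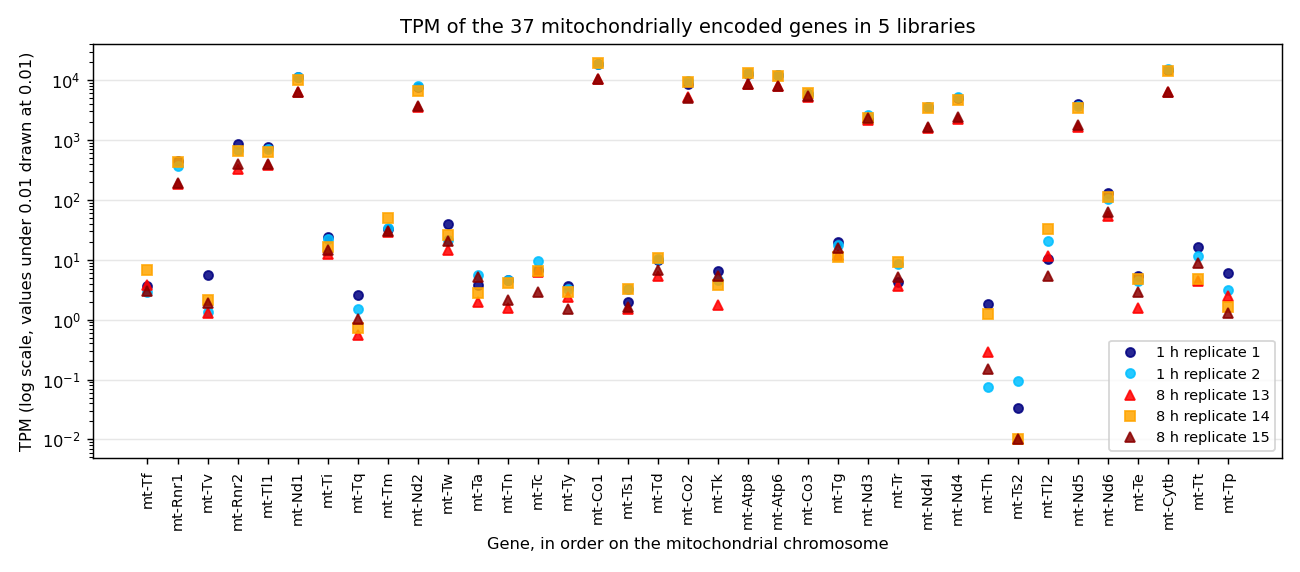
TPM of the 37 mitochondrially encoded genes in order along the chromosome, on a log scale, with 1 point for each library (circles 1 h, triangles 8 h replicates 13 and 15, square 8 h replicate 14). The 12 protein-coding genes of the plus strand sit highest, mt-Nd6 and the 2 rRNA genes lie below them with mt-Tl1, and the other tRNA genes lie lower.

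TPM is scaled by gene length, which allows for length when genes are compared within a library. Poly-A selection and the nuclear copies described below still limit such comparisons. mt-Co1, the catalytic subunit of cytochrome c oxidase (complex IV), had the highest level, with 18492 and 18765 TPM at 1 h against 10499, 19497 and 10334 TPM in 8 h replicates 13, 14 and 15. It exceeded every other mitochondrial gene in all 5 libraries, and its values at 8 h spanned those at 1 h. With the nuclear copies described below added to their genes, mt-Atp6 stood above it in 8 h replicates 13 and 15 (18.0% against 16.6% and 17.7% against 16.2% of the sum). mt-Cytb, the cytochrome b of complex III, had 14889 and 15608 TPM at 1 h against 6305, 14428 and 6300 TPM at 8 h. Its 8 h values were all below those at 1 h, by little in replicate 14 and by far more in replicates 13 and 15. mt-Cytb stood above mt-Atp8 in 3 libraries and below it in 8 h replicates 13 and 15, so the order of these neighbours did not hold in all libraries.

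Both mitochondrial subunits of the ATP synthase followed. mt-Atp8 had 12704 and 13007 TPM at 1 h against 8477, 13271 and 8535 TPM in 8 h replicates 13, 14 and 15. mt-Atp6, which forms part of the proton channel, had 12154 and 12147 TPM at 1 h against 7954, 11668 and 7947 TPM at 8 h. The ratio of mt-Atp8 to mt-Atp6 stayed between 1.05 and 1.14 in all 5 libraries. Next among complex IV subunits came mt-Co2, which takes up electrons from cytochrome c, with 8741 and 9547 TPM at 1 h against 5218, 9369 and 5129 TPM at 8 h. mt-Co3, the third subunit of the complex's core, had 5898 and 5795 TPM at 1 h against 5317, 6069 and 5362 TPM at 8 h. In mt-Co3 the 5 libraries were thus close together and the groups overlapped, unlike mt-Cytb.

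The complex I genes encode membrane subunits of NADH dehydrogenase, where electrons enter the chain. mt-Nd1 was the highest of the 7, with 11409 and 11363 TPM at 1 h against 6263, 10066 and 6408 TPM at 8 h. mt-Nd2 had 7656 and 7963 TPM at 1 h against 3530, 6603 and 3648 TPM at 8 h. In both genes all 8 h libraries lay below both 1 h libraries, and replicate 14 was the nearest to them. mt-Nd4 had 5005 and 5206 TPM at 1 h against 2274, 4680 and 2447 TPM at 8 h. mt-Nd5 had 3952 and 3728 TPM at 1 h against 1643, 3440 and 1757 TPM at 8 h. mt-Nd4l, at 3600 and 3597 TPM at 1 h, had 1563, 3431 and 1623 TPM at 8 h. In these 3, too, every 8 h library lay below both 1 h libraries and replicate 14 was the nearest to them. mt-Nd3 did not: its values were 2256 and 2614 TPM at 1 h against 2150, 2299 and 2345 TPM at 8 h, and the groups overlapped. mt-Nd6, the only protein-coding gene of the minus strand, was the lowest by far, with 129 and 105 TPM at 1 h against 53.0, 110 and 62.9 TPM at 8 h. The part of poly-A selection in its low value was not tested. Highest and lowest mean TPM differed 168-fold over the 13 genes and 6.65-fold over the 12 on the plus strand. In the order of means, mt-Nd2 above mt-Co3 and mt-Nd4l above mt-Nd3 also held in 3 libraries and not in 8 h replicates 13 and 15. The remaining neighbours kept their order in all 5. With the nuclear copies described below added, mt-Atp6 stood above mt-Cytb and mt-Atp8 in every library (16.2% against 9.71% and 8.28% of the sum in 1 h replicate 1). mt-Co3 likewise stood above mt-Nd1 (7.70% against 7.44% there). The order thus depends on whether the copies are counted.

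Summed over the 37 genes, mitochondrial RNA made up 10.9% and 11.1% of TPM in 1 h replicates 1 and 2 and 6.23%, 10.7% and 6.30% in 8 h replicates 13, 14 and 15. All 3 values at 8 h were lower, but replicate 14 lay near the 1 h libraries. The means were 11.03% ± 0.158 (SD, n = 2) at 1 h and 7.74% ± 2.55 (SD, n = 3) at 8 h, a difference of -3.29 percentage points (two-sided exact permutation test, p = 0.2). With 10 arrangements of the libraries, 0.2 is the smallest p this design can give. Within identifier series 1, the share in 8 h replicate 14 differed from the 1 h mean by -0.343 points, and without that library the difference was -4.76 points. No 1 h library belongs to series 2 or shares the Xist and Y-linked RNA pattern of replicates 13 and 15. For these replicates, as named, time, series and that pattern cannot be told apart. Proliferation markers moved with the same libraries: the summed TPM of all 6 (Mki67, Top2a, Pcna, Mcm2, Ccnb1 and Cdk1) was 655 to 719 in series 1, against 1258 and 1340 in 8 h replicates 13 and 15. The 4 neuronal markers summed to 57.8 to 62.6 TPM in series 1 and to 37.5 and 38.5 TPM in series 2, and the 4 oligodendrocyte markers to 113 to 164 and to 35.5 and 69.1 TPM. The part of these markers in the result was not tested. In bulk libraries, fewer cells rich in mitochondrial RNA and less of it in each cell cannot be told apart.

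Gene by gene, no member passed the test of 8 h against 1 h. The test was limma on log2(TPM + 1), run over the 13870 genes that reached a mean of 1 TPM, of which 35 were mitochondrial. The tRNA genes mt-Th and mt-Ts2 were below this level. For a call, the adjusted p had to be 0.05 or less and the log2 fold change above 1 in size. None of the 35 was called (0 of 35, smallest adjusted p 0.286), against 6 of 13870 genes in all (0.0433%, and 0.0288% with 8 h lower). At an unadjusted p under 0.05, 10 members were lower at 8 h and 0 were higher, whereas 2.82% of all genes tested were lower and 12.3% passed in either direction. The log2 fold change was negative for 33 of the 35 members, with a median of -0.57, and the median over all genes was 0.10. Groups did not overlap, with 8 h lower, for 17 members, against 9.43% of all genes. They did not overlap with 8 h higher for 0 members, against 23.7% of all genes. All 13 protein-coding genes had negative fold changes. The lowest was that of mt-Cytb, -0.88 ± 0.39 (SE, adjusted p = 0.41 by limma), and the highest that of mt-Co3, -0.07 ± 0.13 (SE, adjusted p = 0.80 by limma). The 7 protein-coding genes whose groups did not overlap were mt-Nd1, mt-Nd2, mt-Atp6, mt-Nd4l, mt-Nd4, mt-Nd5 and mt-Cytb.

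The 0 calls rested on 1 library. Without 8 h replicate 14, time, series and the split in Xist and Y-linked RNA fall together. In that fit 8 of the 35 members were called, all lower in 8 h replicates 13 and 15 (568 of 13870 genes were called, 4.10%, and 1.12% were called lower). They were mt-Rnr1, mt-Rnr2, mt-Nd2, mt-Nd4l, mt-Nd4, mt-Nd5, mt-Nd6 and mt-Cytb, with adjusted p from 0.00169 to 0.00951. In this fit mt-Cytb had a log2 fold change of -1.27 ± 0.07 (SE). For mt-Nd1, mt-Co1, mt-Co2, mt-Atp8 and mt-Atp6 the changes were -0.85 to -0.60, short of the fold change threshold, with adjusted p from 0.00261 to 0.00517. mt-Co3 and mt-Nd3 had -0.13 ± 0.07 (SE, adjusted p = 0.21) and -0.11 ± 0.10 (SE, adjusted p = 0.45) by limma. Within series 1 alone 0 members were called (0.0505% of all genes were), 8 had an unadjusted p under 0.05 (5 lower and 3 higher), and the median log2 fold change of the 35 was -0.12.

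Both rRNA genes were low for RNAs known to be abundant in cells. mt-Rnr1, the 12S rRNA of the small subunit of the mitochondrial ribosome, had 448 and 368 TPM at 1 h against 182, 434 and 191 TPM in 8 h replicates 13, 14 and 15. mt-Rnr2, the 16S rRNA of the large subunit, had 847 and 680 TPM at 1 h against 332, 650 and 392 TPM at 8 h. Values in 8 h replicates 13 and 15 were the lowest for both, and the groups overlapped for mt-Rnr1 only. The ratio of mt-Rnr2 to mt-Rnr1 was 1.50 to 2.06.

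Among the tRNA genes, 1 held most of the signal. mt-Tl1, a leucine tRNA gene that adjoins mt-Rnr2 on one side and mt-Nd1 on the other with a gap of 0 bases, had 766 and 707 TPM at 1 h against 378, 621 and 393 TPM at 8 h. The other 21 tRNA genes together summed to 118.2 to 208 TPM in a library, and their means ran from 0.0274 to 35.1 TPM with a median of 4.05. mt-Tl1 was thus 16.3 times as high as mt-Tm, the next. Its level was close to that of its neighbour, at 0.903 to 1.14 times mt-Rnr2 in all libraries. The whole genes of the highest, the next and the lowest tRNA are shown with their last 3 bases in capitals. No gene ends in CCA, the end that is added to tRNAs after transcription. They lie on the plus strand at MT:2676-2750, MT:3845-3913 and MT:11613-11671.
mt-Tl1: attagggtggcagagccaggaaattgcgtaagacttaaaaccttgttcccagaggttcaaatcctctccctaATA
mt-Tm: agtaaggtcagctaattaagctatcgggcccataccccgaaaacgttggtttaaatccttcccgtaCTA
mt-Ts2: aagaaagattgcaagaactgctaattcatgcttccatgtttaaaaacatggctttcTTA
mt-Tm, the methionine tRNA gene, had 32.2 and 34.0 TPM at 1 h against 28.6, 50.3 and 30.4 TPM at 8 h, with overlapping groups. mt-Ts2, a serine tRNA gene, had at most 0.094 TPM and was listed at 0 in 8 h replicate 13. mt-Th, the histidine tRNA gene, ranged from 0.0761 to 1.83 TPM, with both extremes at 1 h. Of the 20 tRNA genes tested, 18 had a negative log2 fold change, 9 had groups that did not overlap, all with 8 h lower (9.43% of all genes), and 6 had an unadjusted p under 0.05, all lower (2.82% of all genes). The most negative was mt-Tt, a threonine tRNA gene, with 16.2 and 11.7 TPM at 1 h, 4.47, 4.83 and 8.76 TPM at 8 h, and a log2 fold change of -1.12 ± 0.30 (SE, adjusted p = 0.31 by limma). The exceptions were mt-Tf, a phenylalanine tRNA gene, at 0.31, and mt-Tm at 0.09 (-0.02 with median-ratio scaling), where 8 h replicate 14 held the highest value. Genes this short and low rest on few reads: the coverage (mean reads per base) of the 21 genes other than mt-Tl1 was 0 to 159, against 150 to 61648 for the protein-coding genes.

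Shares of the mitochondrial total show how the genes stood to each other whatever the level of the whole. The distance between libraries is given as 0.5 times the summed absolute differences in share, in percentage points. It was 1.49 between the 1 h libraries and 1.12 between 8 h replicates 13 and 15. 8 h replicate 14 was 3.26 and 2.97 from the 1 h libraries. 8 h replicates 13 and 15 were 7.90 to 8.55 from each of the other 3. The means of 1 h and 8 h differed by 6.24 points, and by 3.06 points within series 1. Composition thus set 8 h replicates 13 and 15 apart from the other libraries more than it set 8 h apart from 1 h.

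The difference was spread over several genes. For 9 of the 13 protein-coding genes the shares in 8 h replicates 13 and 15 lay outside the range of the other 3 libraries, above it for mt-Co3, mt-Nd3, mt-Atp8 and mt-Atp6 and below it for mt-Cytb, mt-Nd2, mt-Nd4l, mt-Nd4 and mt-Nd5. mt-Co3 held 5.40% and 5.20% of the mitochondrial TPM at 1 h against 8.54%, 5.68% and 8.51% in 8 h replicates 13, 14 and 15. mt-Nd3 held 2.07% and 2.35% at 1 h and 3.45%, 2.15% and 3.72% at 8 h. Both shares were highest in 8 h replicates 13 and 15. The share of mt-Cytb was lowest there, with 13.6% and 14.0% at 1 h and 10.1%, 13.5% and 9.998% at 8 h. mt-Co1 held 16.9% and 16.8% at 1 h and 16.9%, 18.2% and 16.4% at 8 h, so that it was highest in 8 h replicate 14. In TPM, the mean of series 2 over the mean of series 1 was 0.421 for mt-Cytb, 0.450 for mt-Nd4l, 0.459 for mt-Nd5, 0.475 for mt-Nd4 and 0.485 for mt-Nd2. It was 0.551 for mt-Co1, 0.561 for mt-Co2, 0.579 for mt-Nd1, 0.655 for mt-Atp8 and 0.663 for mt-Atp6, and it was 0.902 for mt-Co3 and 0.941 for mt-Nd3. The 4 protein-coding genes with the highest ratios follow each other on MT, from mt-Atp8 to mt-Nd3.

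**Figure D2:**
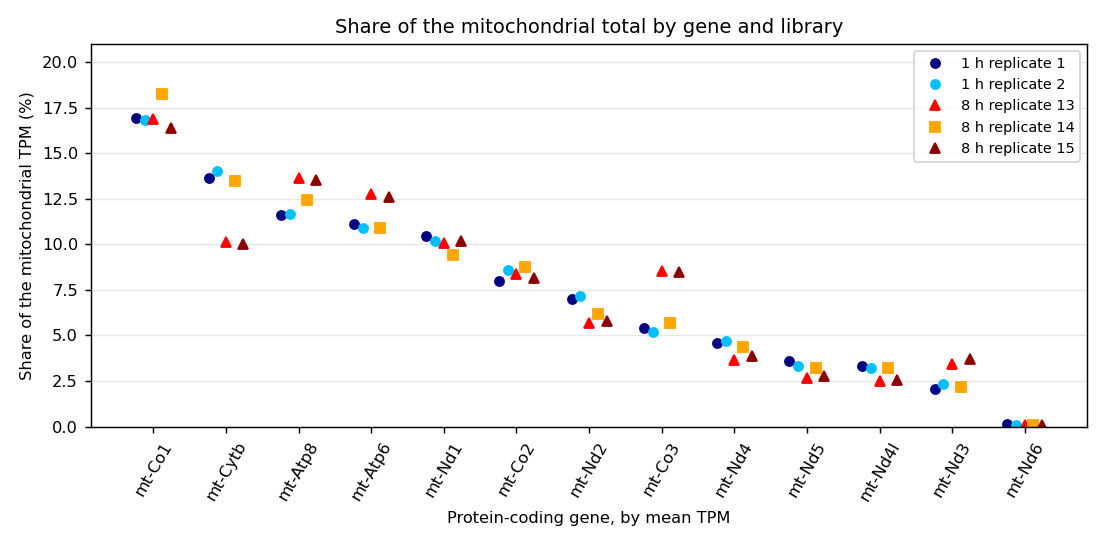
Share of the mitochondrial TPM (%) held by each of the 13 protein-coding genes, ordered by mean TPM, with 1 point for each library. 8 h replicates 13 and 15 (triangles) lie above the other libraries for mt-Co3, mt-Nd3, mt-Atp8 and mt-Atp6 and below them for mt-Cytb, mt-Nd2, mt-Nd4l, mt-Nd4 and mt-Nd5, and 8 h replicate 14 (square) lies near the 1 h libraries (circles) for most genes.

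Ratios of gene pairs showed where the libraries parted. mt-Co3 to mt-Cytb was 0.396 and 0.371 at 1 h and 0.843, 0.421 and 0.851 in 8 h replicates 13, 14 and 15. mt-Nd3 to mt-Nd4l was 0.627 and 0.727 at 1 h and 1.38, 0.670 and 1.44 at 8 h, although these genes are separated by a single tRNA gene, mt-Tr. By contrast, mt-Nd3 to mt-Co3 stayed between 0.379 and 0.451. The ratio of mt-Nd4l to mt-Nd4, which overlap by 7 bases with no tRNA gene between them, stayed between 0.663 and 0.733. mt-Nd3 and mt-Co3 on one side, and mt-Nd4l and mt-Nd4 on the other, thus stood in similar ratios in all 5 libraries. mt-Co3 to mt-Atp6 did not, at 0.485 and 0.477 at 1 h and 0.669, 0.520 and 0.675 at 8 h. mt-Cytb to mt-Nd5 was 3.59 to 4.19 and mt-Nd5 to mt-Nd6 was 27.9 to 35.3, with no separation of the libraries.

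By complex, the shares of time groups did not overlap for any of the 4. The 7 complex I genes held 31.2% and 31.0% of the mitochondrial TPM at 1 h against 28.1%, 28.7% and 29.0% in 8 h replicates 13, 14 and 15. The 3 complex IV genes held 30.4% and 30.6% at 1 h and 33.8%, 32.7% and 33.0% at 8 h. In these sums 8 h replicate 14 lay with the other 8 h libraries for both complexes, but partly through different genes. For complex IV it had the highest share of mt-Co1 (18.2%). Replicates 13 and 15 instead had higher shares of mt-Co3 (8.54% and 8.51%, against 5.68% in replicate 14). For complex I, the share of mt-Nd2 was lower in every 8 h library than at 1 h. That of mt-Nd1 was lowest in replicate 14 (9.42%, against 10.06% and 10.17% in replicates 13 and 15). The 2 complex V genes held 22.8% and 22.6% at 1 h and 26.4%, 23.3% and 26.2% at 8 h, and mt-Cytb alone stands for complex III. These are shares of a fixed total, so that a higher share of one complex implies a lower share elsewhere, and they were not tested.

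Several of these genes have near-identical nuclear copies, which makes their levels uncertain. On chromosome 1 (GRCm38), 7 annotated copies match a stretch of the mitochondrial chromosome from MT:6381-11042 in the same gene order on the minus strand. They are Gm28439 (a copy of part of mt-Nd4), Gm10222 (mt-Nd4l), Gm28438 (mt-Nd3), Gm28437 (mt-Co3), Gm10925 (mt-Atp6), Gm28661 (mt-Co2) and Gm29216 (part of mt-Co1). Over the aligned bases, 5 of the 7 had no mismatch. Gm28438 differed from mt-Nd3 by T3C, counted from base 1 of the mitochondrial gene, and the starts of both are shown with the first codon in capitals (MT:9459-9518, plus strand, and chr1:24613060-24613119, minus strand).
mt-Nd3: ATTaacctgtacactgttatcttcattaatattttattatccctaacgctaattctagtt
Gm28438: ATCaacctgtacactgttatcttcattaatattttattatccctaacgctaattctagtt
Gm29216 matches 492 bases of mt-Co1 with 6 substitutions, all at its own start, shown with the differing bases in capitals (MT:6381-6420, plus strand, and chr1:24616158-24616197, minus strand).
mt-Co1: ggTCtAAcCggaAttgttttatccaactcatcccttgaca
Gm29216: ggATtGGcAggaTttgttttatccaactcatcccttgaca
Beyond these bases a read from either place has the same sequence. mt-Co3 and Gm28437 are alike throughout their 783 aligned bases.

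The copies had the values of their mitochondrial genes. For the 5 copies that span more than 90% of a gene, the TPM of the copy was 0.997 to 1.05 times that of the gene in all 5 libraries. Gm28437, for example, had 5905 and 5802 TPM at 1 h against 5323, 6052 and 5365 TPM at 8 h, beside mt-Co3 at 5898 and 5795 and at 5317, 6069 and 5362 TPM. The shorter copies had lower values: Gm28439, which spans 63.6% of mt-Nd4, had 0.617 to 0.653 times its TPM, and Gm29216, which spans 31.8% of mt-Co1, had 0.413 to 0.444 times its TPM. The sources used here do not say how reads that map to both places were treated. The 7 copies held 4.42% and 4.59% of TPM at 1 h against 2.86%, 4.48% and 2.90% at 8 h, in addition to the mitochondrial share. Added together, mitochondrial genes and copies held 15.3% and 15.7% at 1 h and 9.09%, 15.2% and 9.20% at 8 h. The protein-coding genes with the highest series 2 to series 1 ratios, mt-Atp8, mt-Atp6, mt-Co3 and mt-Nd3, all lie inside the copied stretch. mt-Nd4l, mt-Co2 and mt-Atp6 also have copies that span more than 90% of the gene, and their ratios were below those of mt-Co3 and mt-Nd3. The part of the copies in these ratios was not tested. Over the 24 genes outside the copied stretch alone, the means of 1 h and 8 h differed in composition by 3.53 points. There the share of mt-Cytb was 36.98% and 38.4% at 1 h and 33.6%, 39.5% and 32.7% in 8 h replicates 13, 14 and 15.

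**Figure D3:**
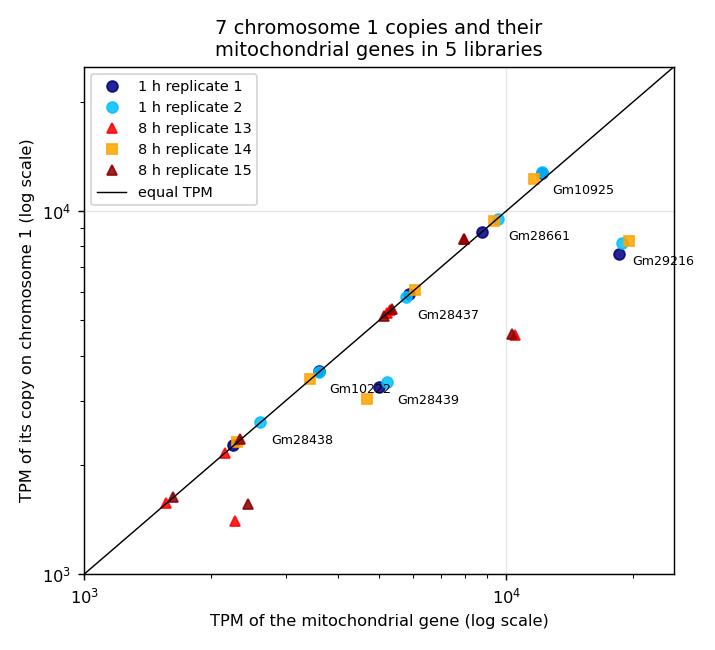
TPM of 7 copies on chromosome 1 against TPM of the matching mitochondrial gene, both on log scales, with 1 point for each library and the line of equal TPM. Points of the 5 copies that span more than 90% of a gene lie on the line (0.997 to 1.05), and those of Gm28439 and Gm29216 lie below it.

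The nuclear-encoded partners of these subunits differed little between libraries. The list held 76 nuclear genes, all with a mean TPM of at least 1 and all counted here as subunits. An inhibitor of the ATP synthase was among them, as were the 4 genes of complex II, which has no mitochondrially encoded subunit. None was called (0 of 76, 0 at an unadjusted p under 0.05 by limma), and their median log2 fold change was -0.01. Groups did not overlap for 6 lower and 4 higher at 8 h, against 9.43% lower and 23.7% higher among all genes, so neither count stands above that of all genes. The most abundant were 3 subunits of the ATP synthase, Atp5b, Atp5a1 and Atp5g3. Atp5b, of its catalytic head, had 2070 and 2090 TPM at 1 h against 2344, 2055 and 2239 TPM at 8 h. Sdha, the flavoprotein of complex II, had the highest log2 fold change, 0.22 ± 0.13 (SE, adjusted p = 0.46 by limma), followed by Atp5o at 0.20 and Cox5a at 0.19. Atp5g1 at -0.25, the complex I subunit Ndufb11 at -0.24 and Atp5j2 at -0.20 had the lowest. Without 8 h replicate 14, where 8 mitochondrial genes were called, 0 of the 76 were called, and their median was 0.03.

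Set beside each other, the 13 mitochondrial genes summed to 3.97 and 3.91 times the TPM of the 76 nuclear subunits at 1 h and to 2.10, 4.06 and 2.22 times in 8 h replicates 13, 14 and 15. The nuclear sum itself was 26895 and 28009 TPM at 1 h against 29163, 25871 and 27854 TPM at 8 h, a narrow and overlapping range. The mitochondrial sum was 106884 and 109447 TPM at 1 h against 61247, 104931 and 61896 TPM at 8 h. Complex III had the widest spread of the ratio, 4.57 and 4.59 at 1 h and 1.72, 4.60 and 1.89 at 8 h, and complex V the narrowest, 2.52 and 2.54 at 1 h and 1.57, 2.65 and 1.64 at 8 h. Relative to the 1 h mean, the median log2 ratio of the 13 mitochondrial genes was -0.86, -0.08 and -0.85 in 8 h replicates 13, 14 and 15, and that of the 76 nuclear subunits was 0.08, -0.07 and 0.00.

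**Figure D4:**
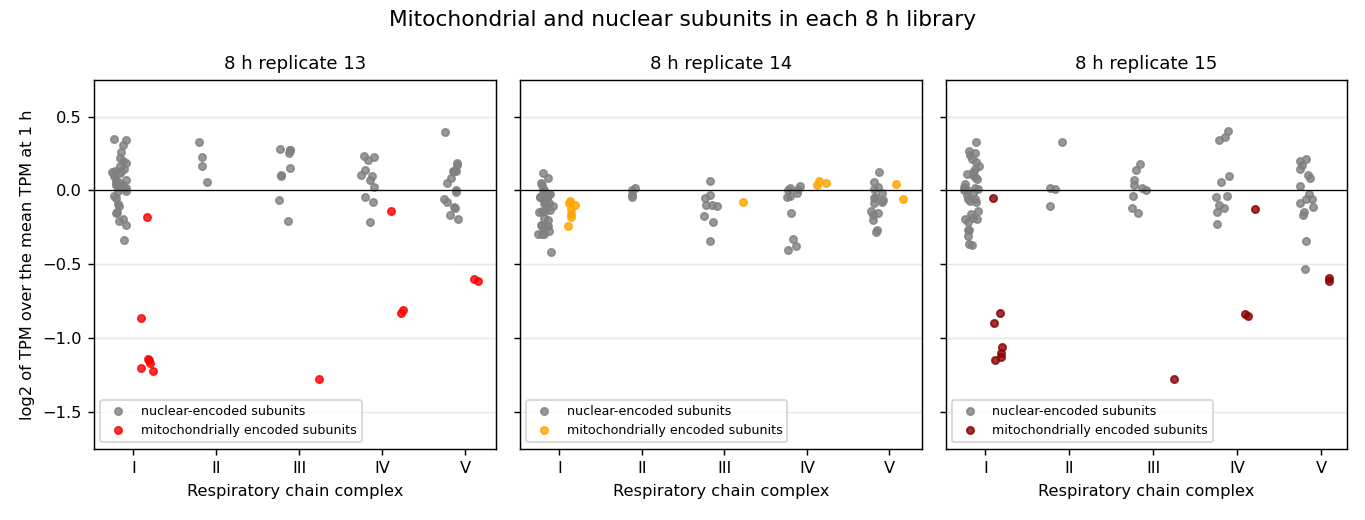
log2 of the TPM of each respiratory chain subunit over its mean TPM at 1 h, by complex, in each of the 3 libraries at 8 h (grey points nuclear-encoded, coloured points mitochondrially encoded subunits). Mitochondrial subunits lie between -1.27 and -0.05 in 8 h replicates 13 and 15, where mt-Nd3 and mt-Co3 are the points within the nuclear range, and between -0.24 and 0.07 in 8 h replicate 14.

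Nuclear genes whose products transcribe, copy, cut, tail or stabilise mitochondrial RNA or DNA formed a second nuclear list. It also held 7 nuclear regulators, Ppargc1b and Pprc1 among them, which do not belong to those classes. Of the 37 listed, 36 were found and all 36 were tested. None was called (0 of 36), 11 had an unadjusted p under 0.05 with 8 h higher and 1 with 8 h lower by limma, against 9.52% and 2.82% of all genes. Their median log2 fold change was 0.23, beside 0.10 over all genes, and groups did not overlap for 19 higher and 2 lower, against 23.7% and 9.43% of all genes. The most abundant were Rexo2, an oligoribonuclease, Polg, the catalytic subunit of the mitochondrial DNA polymerase, and Hsd17b10, a subunit of mitochondrial RNase P. Polg had 86.4 and 101.4 TPM at 1 h against 123, 89.3 and 112 TPM at 8 h, with overlapping groups. The highest log2 fold changes were those of Ppargc1b, a coactivator of mitochondrial biogenesis, at 0.61, of Fastkd5, which takes part in processing of mitochondrial mRNAs that no tRNA flanks, at 0.57, and of Mgme1, an exonuclease of mitochondrial DNA, at 0.57. Fastkd5 had 13.6 and 11.5 TPM at 1 h against 19.4, 17.8 and 20.3 TPM at 8 h (0.57 ± 0.13 SE, adjusted p = 0.29 by limma). All 3 of its 8 h values, replicate 14 included, exceeded those at 1 h. At the other end were Pprc1, a coactivator related to Ppargc1b, at -0.39 and Slirp, which stabilises mitochondrial mRNAs, at -0.26. Pprc1 had 27.2 and 28.6 TPM at 1 h against 22.5, 21.4 and 19.5 TPM at 8 h (adjusted p = 0.35 by limma).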

How the data were processed

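Stranded, poly-A selected libraries were sequenced from both ends in 5 samples. The authors aligned reads to GRCm38 with STAR through nf-core/rnaseq and counted them with featureCounts. For each library they deposited a table per gene with TPM, FPKM and mean per-base coverage, and the sources used here name neither the tool nor its treatment of multiply mapping reads. The deposited table of counts lists 7599 genes and 0 of the 37 members, and was used only to check library names, so the planned count test of members was not run. It had 0 further columns. TPM of a gene with more than 1 row was summed. The ratio of coverage to FPKM over mitochondrial genes, proportional to depth, was 5.57 to 7.18, and 13681 to 13967 genes had a TPM of at least 1.

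Here limma 3.58.1 (R 4.3.3, intensity trend, no covariate) was fitted to log2(TPM + 1), which understates changes of low genes, with Benjamini-Hochberg adjustment over all genes tested. Summed shares were tested by exact permutation (scipy 1.17.1). Fold change and p thresholds are those the study used for other RNA-seq data. Sequences and copies were read from GENCODE vM21 transcripts, whose coordinates were identical for all 37 members, and copies were compared without gaps. Named were all members, all annotated genes within 10 kb of Gm10925, and of each nuclear list the called genes, the 3 highest by mean TPM and the 3 largest fold changes in each direction. Members and lists were chosen with earlier results of these data known. One marker gene of the lists is not reported here. Alternatives were other pseudocounts, filters, scalings and thresholds, the identifier series, and leaving out each library.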

Additional observations from a re-analysis of the deposited data

How the results depend on the processing

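The mitochondrial share of TPM was lower at 8 h under all alternatives run, by -2.53 to -4.76 percentage points when 1 library was left out and by -0.343 within identifier series 1, and no alternative could bring its p under 0.05. The count of members called was 0 in all but 1 alternative: without 8 h replicate 14 it was 8. There time, identifier series and the split in Xist and Y-linked RNA cannot be told apart, and the cause was not tested. For the nuclear subunits and the nuclear factors it was 0 under every alternative run. The composition of 1 h and 8 h differed by 6.24 points, by 3.06 within identifier series 1, and by 5.23 to 8.23 when 1 library was left out. Log2 fold changes turned positive, both within identifier series 1 and with the series as a term, for mt-Rnr1 (0.098), mt-Co1 (0.066), mt-Co2 (0.036), mt-Atp8 (0.046) and mt-Co3 (0.054), and for the tRNA genes mt-Ts1 (0.24), mt-Td (0.066), mt-Tr (0.56) and mt-Tl2 (1.09), so that 11 of 35 were positive there. Other alternatives also turned the sign of mt-Tv, mt-Tm, mt-Ts1, mt-Tr and mt-Tl2. That of mt-Nd3 ran from -0.21 without 1 h replicate 1 to 0.0050 without 1 h replicate 2. The value without genes of the copied stretch was added after seeing the data. Median-ratio scaling moved the median of all genes by -0.11 on the log2 scale. No paired analysis was possible because the groups share no replicate numbers. With 2 libraries at 1 h, the spread of that group rests on a single difference, and tRNA genes with low coverage limit what could be detected.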
